A study of Homo sapiens with 15 samples.

Results

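A set of 10 genes for surface antigens and receptors of myeloma cells was followed in the human multiple myeloma line RPMI-8226 after treatment with KB528. They were chosen by name as targets of myeloma therapy or receptors of the bone marrow niche, with earlier results of these data known. All 10 were found among the 26364 gene rows of the deposited table. The therapy targets were TNFRSF17, which encodes BCMA, SDC1, which encodes CD138, CD38, SLAMF7, GPRC5D and FCRL5. The niche receptors were CXCR4, IL6R, IL6ST, which encodes gp130, and TNFRSF13B, which encodes TACI. The study, whose title names the oncogenic activity of the transcription factor IRF4, compared DMSO at 0 h with 100 nM KB528 for 1, 3, 6 and 24 h, in 3 libraries per group and 15 in all. Per the labels KB528 inhibits the acetyltransferase activity of p300, a transcriptional coactivator, and polyadenylated RNA was read with strand-specific libraries. All groups were the same line in medium with 10% serum, so the values describe 1 line. The labels give WT as the genotype of the DMSO samples and enter KB528 as that of the treated ones, and they name no change to the genome. The labels do not say whether the 3 libraries of a group are separate cultures. The p-values therefore reflect the spread among these libraries alone, and that spread may be technical. DMSO was taken at 1 time, so time in culture and KB528 cannot be told apart.

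Plasma cells and myeloma cells carry a set of surface proteins that few other cells share, and antibodies, bispecific antibodies and CAR T cells are aimed at them. BCMA and TACI receive the survival ligands APRIL and BAFF, the IL-6 receptor pairs with gp130 to activate JAK and STAT3, and CXCR4 holds plasma cells in the marrow along a gradient of CXCL12. Because RNA was measured in bulk, fewer transcripts per cell and fewer expressing cells cannot be told apart, and protein on the surface was not measured.

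Most of these transcripts were lower after KB528, on different schedules. In TPM, TNFRSF17, CD38 and GPRC5D fell further at each step after 3 h, though with spike-in scaling TNFRSF17 alone of the 3 was called lower from 3 h to 6 h and CD38 turned to 0.24, and were lowest at 24 h, at 40.6%, 53.0% and 14.2% of their DMSO means. SDC1, SLAMF7 and IL6R were lowest at 6 h, at 40.4%, 37.4% and 35.7% of DMSO, and were higher again at 24 h than at 6 h while still below DMSO. With spike-in scaling none of these 3 was called lower from 3 h to 6 h. IL6R alone of them was then called higher from 6 h to 24 h. CXCR4 was the only one of the 9 tested genes called at 1 h and was lowest at 3 h. IL6ST fell at 3 h and was above DMSO at 6 h and 24 h. TNFRSF13B was above DMSO at 6 h and was not called against DMSO at any other time. All 4 comparisons with DMSO share the same 3 DMSO libraries.

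**Figure D1:**
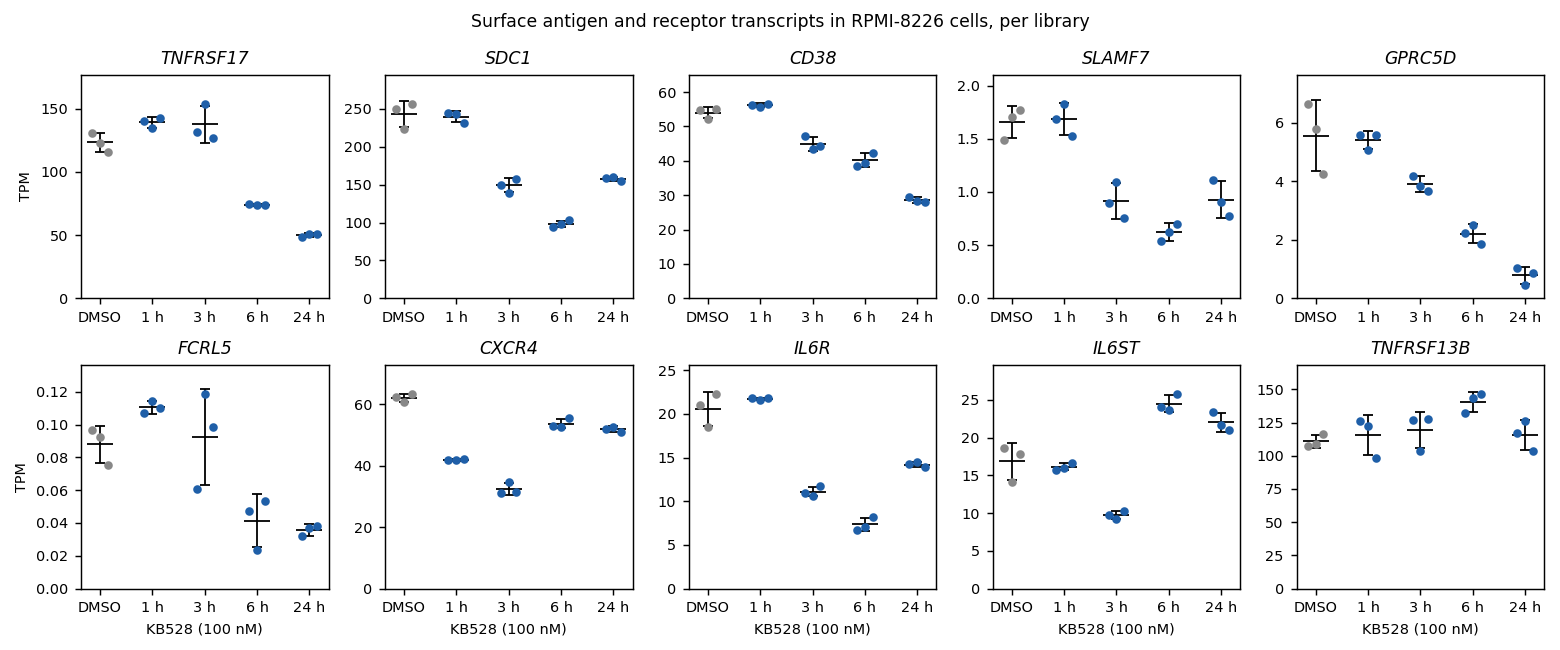
Transcript abundance (TPM) of the 10 genes in each library, with DMSO in grey and 100 nM KB528 at 1, 3, 6 and 24 h in blue. Points are libraries, black bars are the mean and the SD of 3 libraries, and each vertical axis starts at 0. The 3 GPRC5D values at 24 h lie between 0.463 and 1.03 TPM, below all 3 DMSO values.

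Values are in TPM, a relative abundance of transcripts that divides out transcript length and library size, so levels of different genes can be set side by side. Log2 fold changes are of TPM + 1 against DMSO unless another reference is named, and understate the change of low genes. Adjusted p-values come from limma over the 12002 genes averaging 1 TPM or more, with a threshold of 0.05. Of the 10 genes 9 were tested, and FCRL5, below that level, is described without a test. At 1 h 1 of the 9 was called, and it fell, where 22.6% of all tested genes were called and 7.57% fell. At 3 h 1 rose and 7 fell, against 24.9% and 32.0% of all tested genes. Counts were 2 higher and 7 lower at 6 h, against 44.4% and 24.5%, and 1 higher and 7 lower at 24 h, against 56.1% and 15.2%. The median log2 fold change of the 9 genes was 0.013, -0.48, -0.71 and -0.50 at 1, 3, 6 and 24 h, and that of all tested genes 0.043, -0.042, 0.12 and 0.23. All 9 were called over the time course, but so were 93.6% of all tested genes. The median of all genes depends on the scaling. Median-ratio scaling shifted the values by a median of -0.15 at 6 h and -0.19 at 24 h, with 3922 genes higher and 4504 lower at 6 h. At 24 h it gave 4458 higher genes and 3594 lower ones, and at 1 h 1858 and 1791. With length correction 4157 were higher and 3966 lower at 24 h, and with spike-in scaling 411 and 2523 at 3 h.

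**Figure D2:**
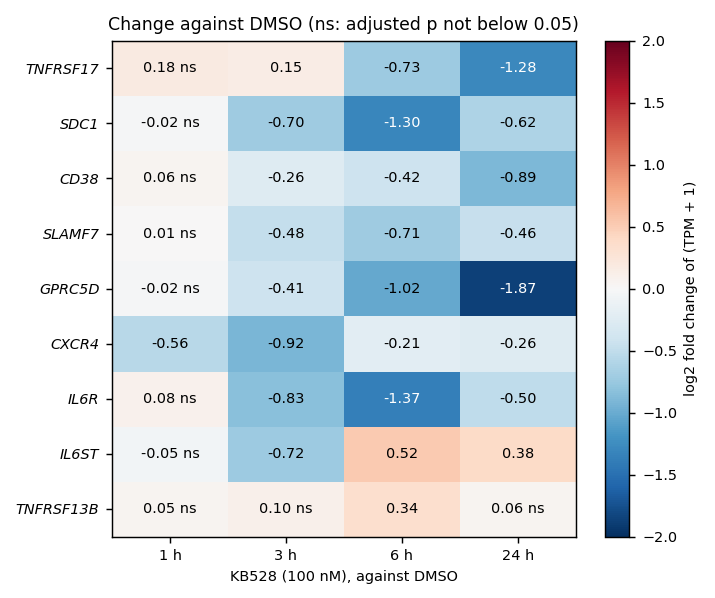
Log2 fold change of TPM + 1 against DMSO for the 9 tested genes (rows) after 1, 3, 6 and 24 h of 100 nM KB528 (columns), from limma. Red is higher and blue is lower than DMSO, and ns marks an adjusted p that is not below 0.05. GPRC5D at 24 h has the largest change, at -1.87.

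**Figure D3:**
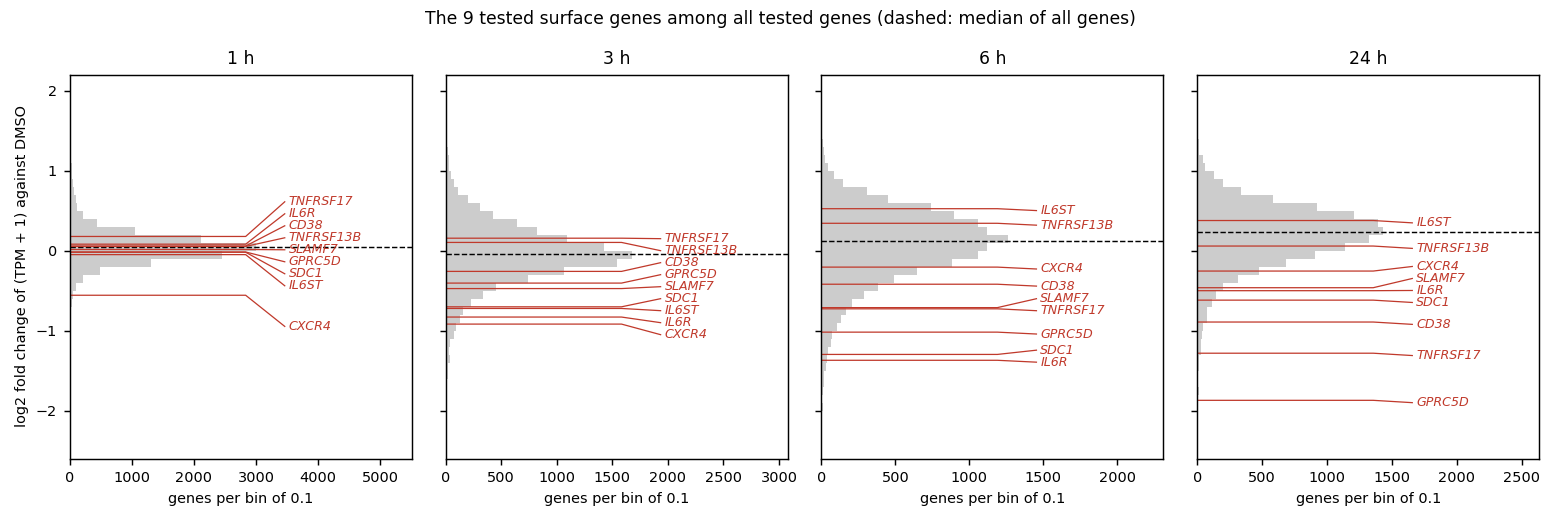
Log2 fold changes of all 12002 tested genes against DMSO at each time, as grey histograms in bins of 0.1, with the 9 surface genes drawn as red lines and the median of all genes dashed. Genes beyond the drawn range of the vertical axis are not shown. At 24 h 0.125% of tested genes had a lower fold change than GPRC5D.

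The promoters of genes on different schedules are shown here as the genome's sequence at the start sites, 250 bases before to 50 after, as annotated by RefSeq on GRCh38.p14. Of the 10 genes, 8 have a start site in that table, and 4 are printed. CD38 and GPRC5D kept falling, IL6R fell and partly returned, and TNFRSF13B overlapped DMSO at 24 h. Capitals mark matches on either strand to GAAA, any 2 bases and GAAA (the core of the interferon response element), to GGAA, any 2 bases and GAAA (a composite element of ETS factors and IRF4), TGANTCA (AP-1), TGCTGAC (the core bound by MAF), GGGA, any 2 bases and TTCC (NF-kB) or TATAAA (the TATA box).
CD38, chr4:15778078-15778377, plus strand: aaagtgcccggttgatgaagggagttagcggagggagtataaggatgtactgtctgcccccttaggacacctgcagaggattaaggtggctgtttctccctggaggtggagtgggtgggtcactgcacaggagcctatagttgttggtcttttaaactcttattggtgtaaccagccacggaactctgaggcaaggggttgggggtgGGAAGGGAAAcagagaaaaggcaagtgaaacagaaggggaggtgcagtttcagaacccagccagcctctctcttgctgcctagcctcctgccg
GPRC5D, chr12:12952121-12952420, minus strand: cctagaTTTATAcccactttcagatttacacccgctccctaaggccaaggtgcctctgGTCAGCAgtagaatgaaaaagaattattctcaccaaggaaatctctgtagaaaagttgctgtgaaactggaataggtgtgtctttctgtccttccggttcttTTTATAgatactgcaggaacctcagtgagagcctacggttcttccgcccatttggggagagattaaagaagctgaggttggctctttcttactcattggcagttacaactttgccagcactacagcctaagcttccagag
IL6R, chr1:154405093-154405392, plus strand: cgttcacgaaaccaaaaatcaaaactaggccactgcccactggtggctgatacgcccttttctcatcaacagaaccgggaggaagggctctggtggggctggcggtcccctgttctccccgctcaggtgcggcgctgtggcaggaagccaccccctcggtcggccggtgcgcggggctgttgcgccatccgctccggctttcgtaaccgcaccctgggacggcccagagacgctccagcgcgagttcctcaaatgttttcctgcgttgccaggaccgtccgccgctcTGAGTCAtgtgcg
TNFRSF13B, chr17:16972069-16972368, minus strand: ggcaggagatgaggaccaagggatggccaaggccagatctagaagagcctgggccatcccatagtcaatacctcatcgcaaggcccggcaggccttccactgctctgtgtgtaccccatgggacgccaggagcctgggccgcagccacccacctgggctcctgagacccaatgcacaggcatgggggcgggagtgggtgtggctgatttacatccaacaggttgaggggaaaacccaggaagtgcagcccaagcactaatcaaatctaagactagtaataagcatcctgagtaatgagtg
The CD38 sequence holds 1 composite element at position -43 from the start, a motif found in 2.82% of 35116 promoters of this length. GPRC5D holds the MAF core at position -192, as do 4.19% of promoters somewhere in the window. It also holds 2 matches to the TATA box, a motif found in 11.5%. These lie at positions -244 and -90, both on the strand opposite to the printed one. An AP-1 match lies 37 bases after the start of IL6R, and 7.71% of promoters hold one. TNFRSF13B holds none of the 6 motifs in this window. The composite element, the MAF core and the AP-1 site were each found in 1 of the 11 promoters of the 8 genes, the TATA box in 2, and the interferon response core and the NF-kB site in 0. These are matches of letters, and binding was not measured here.

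TNFRSF17 encodes BCMA, the receptor for APRIL and BAFF that keeps plasma cells alive. It stood at 131, 123 and 116 TPM in the DMSO libraries, 140.5, 135 and 143 TPM at 1 h, 132, 154 and 127 TPM at 3 h, 74.6, 73.6 and 73.7 TPM at 6 h, and 48.3, 50.9 and 50.9 TPM at 24 h. The libraries at 1 h lay above every DMSO library, those at 3 h overlapped them, and those at 6 h and 24 h lay below every one. The log2 fold change was -0.73 at 6 h (SE 0.062, adjusted p = 8.02e-08) and -1.28 at 24 h (SE 0.062, adjusted p = 3.15e-10), and the step from 3 h to 6 h was -0.88 (adjusted p = 2.47e-08). At 1 h it missed the test (0.18, adjusted p = 0.0535). It was called higher there with a filter of 5 TPM (adjusted p = 0.0467) or length correction (adjusted p = 0.00134). The same held without the spike-in rows (adjusted p = 0.0289) or DMSO replicate 1 (adjusted p = 0.0372), and the other alternatives did not call it. At 3 h it was called 0.15 higher (adjusted p = 0.0445). Its call did not survive leaving out DMSO replicate 2 (0.15), DMSO replicate 3 (0.11) or KB528 3 h replicate 2 (0.071), and the value was -0.068 with spike-in scaling.

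CD38, an ectoenzyme that uses NAD and the target of daratumumab, fell in smaller steps. Its values were 54.7, 52.3 and 55.0 TPM in DMSO, 56.3, 55.6 and 56.6 TPM at 1 h, 47.1, 43.3 and 44.3 TPM at 3 h, 38.5, 39.5 and 42.4 TPM at 6 h, and 29.5, 28.3 and 28.1 TPM at 24 h. From 3 h on no treated library reached the lowest DMSO library. The log2 fold change was -0.26 at 3 h (adjusted p = 0.000216), -0.42 at 6 h (adjusted p = 1.27e-06) and -0.89 at 24 h (SE 0.047, adjusted p = 7.17e-10). The step from 6 h to 24 h was -0.47 (adjusted p = 3.56e-07). Spike-in scaling turned the step from 3 h to 6 h to 0.24 (adjusted p = 0.263), against -0.16 in TPM (adjusted p = 0.00863), and ended the calls at 3 h and 6 h. Without KB528 3 h replicate 1 that step was -0.13 (adjusted p = 0.0527).

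GPRC5D, an orphan G protein-coupled receptor targeted by talquetamab, had the largest change among the 9 genes. It measured 6.66, 5.79 and 4.26 TPM in DMSO, 5.58, 5.07 and 5.60 TPM at 1 h, 4.20, 3.83 and 3.67 TPM at 3 h, 2.25, 2.52 and 1.87 TPM at 6 h, and 1.03, 0.463 and 0.873 TPM at 24 h. The 24 h libraries were all below the lowest library of every earlier time. With the length of its transcript these levels were whole numbers of reads within 0.000149 reads, 25, 12 and 22 at 24 h against 199, 193 and 120 in DMSO. The DMSO mean was 7.05 times the 24 h mean, and the log2 fold change of -1.87 (SE 0.13, adjusted p = 1.97e-08) understates this, since 1 TPM is added. At 6 h it was -1.02 (adjusted p = 6.94e-06). At 3 h it was -0.41 (adjusted p = 0.0169), a call lost without DMSO replicate 1 (-0.29), DMSO replicate 2 (-0.37) or KB528 3 h replicate 3 (-0.37). A pseudocount of 0.1 TPM also ended it (-0.48, adjusted p = 0.0646).

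FCRL5, an Fc receptor-like protein and the target of cevostamab, was almost silent in this line. It was at 0.0967, 0.0924 and 0.0753 TPM in DMSO, 0.107, 0.114 and 0.110 TPM at 1 h, 0.0608, 0.119 and 0.0983 TPM at 3 h, 0.0474, 0.0234 and 0.0536 TPM at 6 h, and 0.0319, 0.0372 and 0.0382 TPM at 24 h. These are 4, 5 and 5 reads at 24 h and 15, 16 and 11 reads in DMSO, whole within 1.53e-05 reads. The 6 h and 24 h libraries lay below the DMSO libraries, at a depth where counting error is large.

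SDC1 encodes CD138, the heparan sulfate proteoglycan used to identify plasma cells, and had the highest level of the 10 genes in DMSO. It was at 249, 224 and 257 TPM in DMSO, 244, 243 and 231 TPM at 1 h, 150.1, 139 and 157 TPM at 3 h, 93.9, 97.7 and 103 TPM at 6 h, and 158, 160.3 and 155 TPM at 24 h. The 1 h libraries overlapped DMSO, and those of the later times were all below it. The log2 fold change was -0.70 at 3 h (adjusted p = 5.92e-08), -1.30 at 6 h (SE 0.056, adjusted p = 5.36e-11) and -0.62 at 24 h (adjusted p = 2.01e-07). The step from 3 h to 6 h was -0.60 (adjusted p = 5.36e-07), and -0.19 with spike-in scaling (adjusted p = 0.399). From 6 h to 24 h SDC1 rose by 0.68 (adjusted p = 5.38e-08), a call that spike-in scaling ended (0.47, adjusted p = 0.0571).

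SLAMF7, a receptor of the SLAM family and the target of elotuzumab, was low throughout. The libraries had 1.49, 1.71 and 1.77 TPM in DMSO, 1.69, 1.83 and 1.53 TPM at 1 h, 0.894, 1.09 and 0.759 TPM at 3 h, 0.535, 0.623 and 0.703 TPM at 6 h, and 1.11, 0.902 and 0.772 TPM at 24 h. Every library from 3 h on was below the DMSO libraries. The log2 fold change was -0.48 at 3 h (adjusted p = 0.000342), -0.71 at 6 h (SE 0.090, adjusted p = 4.50e-06) and -0.46 at 24 h (adjusted p = 0.000283). The rise of 0.25 from 6 h to 24 h (adjusted p = 0.0227) was lost without KB528 6 h replicate 1 (0.21) or KB528 24 h replicate 1 (0.18). Spike-in scaling (0.16, adjusted p = 0.481) and length correction (0.17, adjusted p = 0.0972) also ended it.

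IL6R, the ligand-binding chain of the IL-6 receptor, and IL6ST, its signal-transducing partner, both fell at 3 h and went in opposite directions at 6 h. IL6R was at 21.0, 18.4 and 22.3 TPM in DMSO, 21.8, 21.6 and 21.8 TPM at 1 h, 11.0, 10.6 and 11.7 TPM at 3 h, 6.73, 7.08 and 8.20 TPM at 6 h, and 14.2, 14.5 and 13.9 TPM at 24 h. Its libraries from 3 h on all lay below DMSO, with log2 fold changes of -0.83 at 3 h (adjusted p = 1.53e-07), -1.37 at 6 h (SE 0.072, adjusted p = 4.70e-10) and -0.50 at 24 h (adjusted p = 1.86e-05). Its step from 3 h to 6 h was -0.54 (adjusted p = 1.78e-05), and -0.17 with spike-in scaling (adjusted p = 0.448). From 6 h to 24 h IL6R rose by 0.87 (adjusted p = 5.67e-08). IL6ST was at 18.6, 14.1 and 17.8 TPM in DMSO, 15.7, 16.0 and 16.6 TPM at 1 h, 9.68, 9.22 and 10.3 TPM at 3 h, 24.0, 23.7 and 25.8 TPM at 6 h, and 23.4, 21.6 and 21.0 TPM at 24 h. The 3 h libraries were all below DMSO and those at 6 h and 24 h all above it. The log2 fold change was -0.72 at 3 h (adjusted p = 2.63e-06), 0.52 at 6 h (SE 0.082, adjusted p = 4.28e-05) and 0.38 at 24 h (adjusted p = 0.000822). Correction for transcript length ended the 24 h call (0.074, adjusted p = 0.138), as did spike-in scaling (0.36, adjusted p = 0.171). From 6 h to 24 h IL6ST was -0.15 (adjusted p = 0.124). That step was called lower with median-ratio scaling (-0.19, adjusted p = 0.00967) and length correction (-0.25, adjusted p = 9.86e-05). It was also called with only the compared groups (adjusted p = 0.0323). In DMSO the library ranges of the pair overlapped, and at 6 h IL6ST stood above IL6R in every library.

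CXCR4, the receptor for CXCL12 that retains plasma cells in the marrow, was the one called at 1 h. Its libraries held 62.3, 60.7 and 63.3 TPM in DMSO, 41.7, 41.7 and 42.0 TPM at 1 h, 31.0, 34.8 and 31.4 TPM at 3 h, 53.0, 52.6 and 55.4 TPM at 6 h, and 52.0, 52.6 and 50.8 TPM at 24 h. All treated libraries were below the lowest DMSO library. The log2 fold change was -0.56 at 1 h (SE 0.045, adjusted p = 4.12e-07), -0.92 at 3 h (adjusted p = 2.80e-10), -0.21 at 6 h (adjusted p = 0.000843) and -0.26 at 24 h (adjusted p = 0.000135). It rose by 0.71 from 3 h to 6 h (adjusted p = 8.58e-09) and was -0.049 from 6 h to 24 h (adjusted p = 0.352). Length correction called that last step lower (-0.14, adjusted p = 0.00256). At 1 h 0.808% of tested genes had a lower fold change. Spike-in scaling left -0.61 at 1 h (adjusted p = 0.0532), -0.021 at 6 h (adjusted p = 0.942) and -0.27 at 24 h (adjusted p = 0.314).

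TNFRSF13B, which encodes TACI, a second receptor for APRIL and BAFF, had 108, 109 and 116 TPM in DMSO, 126, 122 and 98.1 TPM at 1 h, 127, 103 and 128 TPM at 3 h, 132, 143 and 147 TPM at 6 h, and 117, 126 and 104 TPM at 24 h. Its libraries overlapped DMSO at every time other than 6 h. There the log2 fold change was 0.34 (SE 0.097, adjusted p = 0.00590), which median-ratio scaling reduced to 0.19 (adjusted p = 0.0777). At 24 h it was 0.056 (adjusted p = 0.617), with 116 ± 11.2 TPM after KB528 and 111 ± 4.63 TPM in DMSO (SD, n = 3 each).

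Between consecutive times the 9 genes divided. From 1 h to 3 h 0 rose and 7 fell, where 15.2% and 31.8% of all tested genes did. In that step GPRC5D fell by 0.39 (adjusted p = 0.0257), a call lost without 1 h replicate 1 or 3 or 3 h replicate 2 or 3, with values between -0.38 and -0.36. A pseudocount of 0.1 TPM, no filter or median-ratio scaling (-0.34, adjusted p = 0.0550) also ended it. Spike-in scaling ended the calls of CD38 (-0.48, adjusted p = 0.0782) and CXCR4 (-0.52, adjusted p = 0.0507) from 1 h to 3 h. From 3 h to 6 h 3 rose and 6 fell, against 42.3% and 13.7%, and with spike-in scaling 1 of the 9 fell. The rise of TNFRSF13B from 3 h to 6 h (0.24, adjusted p = 0.0480) was lost without KB528 3 h replicate 2 (0.14), KB528 6 h replicate 2 (0.22) or KB528 6 h replicate 3 (0.21). Median-ratio scaling (0.080, adjusted p = 0.459) and length correction (0.18, adjusted p = 0.145) also ended that call. So did no filter, no variance trend or leaving out the spike-in rows. The fall of SLAMF7 in that step (-0.24, adjusted p = 0.0336) was lost without replicate 1 or 2 of either time, with values between -0.24 and -0.17, and was -0.054 with spike-in scaling (adjusted p = 0.768). From 6 h to 24 h SDC1, SLAMF7 and IL6R rose and TNFRSF17, CD38, GPRC5D and TNFRSF13B fell, against 41.0% and 26.0% of all tested genes. The fall of TNFRSF13B (-0.28, adjusted p = 0.0177) was lost without KB528 6 h replicate 2 (-0.27), KB528 6 h replicate 3 (-0.25) or KB528 24 h replicate 3 (-0.21). The order of levels also differed between groups. In DMSO it was SDC1, TNFRSF17, TNFRSF13B, CXCR4, CD38, IL6R, IL6ST, GPRC5D, SLAMF7 and FCRL5, and the library ranges of neighbours overlapped for TNFRSF17 with TNFRSF13B and for IL6R with IL6ST. At 24 h TNFRSF13B, CXCR4, TNFRSF17, CD38, IL6ST and IL6R followed SDC1, ahead of SLAMF7, GPRC5D and FCRL5, with overlap of CXCR4 with TNFRSF17 and of SLAMF7 with GPRC5D.

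The other genes of these pathways were taken from lists, without the 10 genes themselves. Over the listed genes and the 4 times spike-in scaling kept 137 calls, lost 142 and changed the sign of 9 that it no longer called, and the calls below are in TPM. The counts of each list stand beside 24.9%, 44.4% and 56.1% of all tested genes that rose at 3, 6 and 24 h and 32.0%, 24.5% and 15.2% that fell, and beside medians over all tested genes of 0.12 at 6 h and 0.23 at 24 h. For the counts at 1 h, 1802 of the 12002 tested genes rose and 908 (7.57%) fell. Of the partners of BCMA and TACI, TNFRSF13C, the BAFF receptor, was at 6.02 ± 1.23 TPM at 24 h and 2.98 ± 0.560 TPM in DMSO (log2 fold change 0.81, adjusted p = 0.000141), while TNFRSF17 fell. TNFSF13, which encodes the ligand APRIL, was at 7.43 ± 0.410 TPM at 24 h and 4.83 ± 0.485 TPM in DMSO (0.53, adjusted p = 2.60e-05). The genes for BAFF and IL-6, TNFSF13B and IL6, were below 1 TPM in every library. Of 14 tested genes for TRAF adaptors, gamma-secretase, which sheds BCMA, and related proteases, 3, 4, 8 and 11 rose and 0, 7, 5 and 1 fell at 1, 3, 6 and 24 h, with a median of 0.17 at 6 h and 0.28 at 24 h, where 56.1% of all tested genes rose and 15.2% fell at 24 h. TRAF1, an adaptor of TNF receptors, was at 2.71 ± 0.132 TPM at 6 h and 10.6 ± 1.50 TPM in DMSO (-1.64, adjusted p = 6.37e-10), and missed the test at 24 h (-0.020, adjusted p = 0.849). TRAF5 fell by 1.41 at 3 h, with 3.72 ± 0.144 TPM against 11.6 ± 0.564 TPM in DMSO. TRAF2 rose by 0.54 at 6 h.

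**Figure D4:**
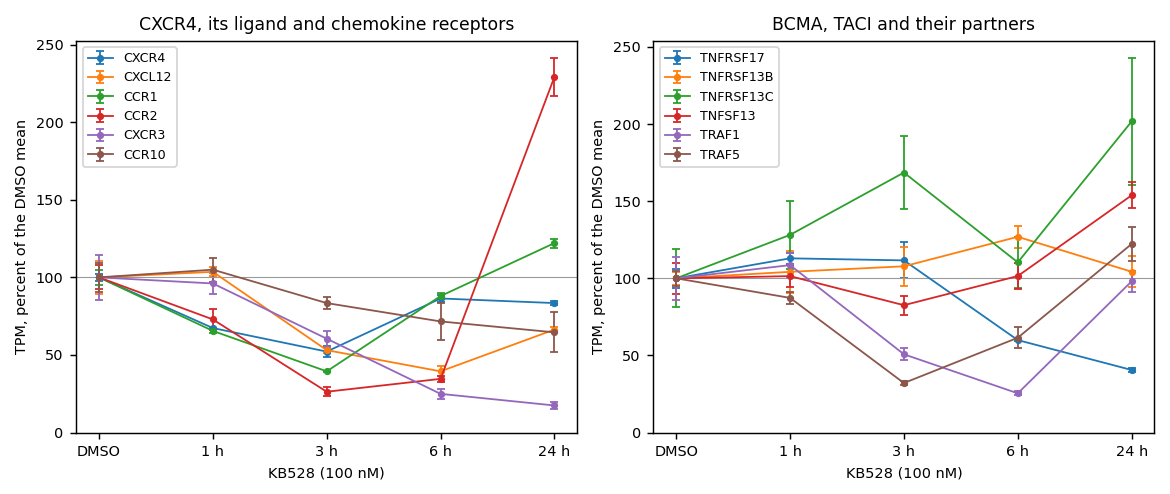
TPM as a percent of the DMSO mean, in DMSO and after 1, 3, 6 and 24 h of 100 nM KB528, for CXCR4, its ligand CXCL12 and 4 chemokine receptors (left) and for BCMA (TNFRSF17), TACI (TNFRSF13B) and 4 partners (right). Points are means and bars the SD of 3 libraries. CXCR4, CCR1 and CCR2 are lowest at 3 h, while CXCR3 is lowest at 24 h.

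Around CXCR4, its ligand gene CXCL12 was at 15.2 ± 1.27 TPM at 6 h and 38.6 ± 4.14 TPM in DMSO (log2 fold change -1.28, adjusted p = 6.58e-10), and at 25.6 ± 0.711 TPM at 24 h. CCR1, a receptor for CCL3, fell by 0.60 at 1 h and by 1.32 at 3 h, and was at 110.1 ± 2.64 TPM at 24 h against 90.2 ± 4.30 TPM in DMSO (0.29, adjusted p = 2.23e-05, or 0.27 and adjusted p = 0.324 with spike-in scaling). CCR2, the receptor for CCL2, fell by 1.56 at 3 h and was at 19.9 ± 1.04 TPM at 24 h against 8.66 ± 0.664 TPM in DMSO (1.11, adjusted p = 1.78e-08). CXCR3 was instead below DMSO at 24 h, with 1.47 ± 0.198 TPM against 8.44 ± 1.21 TPM in DMSO (-1.93, adjusted p = 6.72e-10). CCR10 fell by 0.51 at 24 h. These 4 were the tested genes of 8 listed chemokine receptors. CXCR7, also listed, was left uncounted because its row has another symbol. Of the 4, 0, 0, 0 and 2 rose and 2, 3, 4 and 2 fell at 1, 3, 6 and 24 h. Of 12 tested genes of CXCR4 signalling and desensitisation 2, 4, 6 and 8 rose and 0, 3, 2 and 2 fell, with a median of 0.17 at 6 h and 0.21 at 24 h. GRK2 and GRK3 were left uncounted for the same reason as CXCR7. At 24 h 56.1% of all tested genes rose. RGS2, a brake on G protein signalling, was at 10.1 ± 0.990 TPM at 3 h and 1.20 ± 0.0680 TPM in DMSO (2.33, adjusted p = 8.19e-11). RGS16, a related brake, rose by 0.90 at 1 h and fell by 1.43 at 24 h, and the receptor kinase gene GRK6 fell by 0.55 at 3 h.

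Of the genes of IL-6 signalling, 21 were tested, and 5, 2, 12 and 14 rose and 3, 8, 5 and 6 fell at 1, 3, 6 and 24 h, with a median of 0.25 at 6 h and 0.34 at 24 h. Of all tested genes 44.4% rose at 6 h and 56.1% at 24 h. PIM2, a survival kinase gene, was at 168 ± 8.35 TPM at 3 h and 371 ± 30.7 TPM in DMSO (-1.14, adjusted p = 2.83e-10). SOCS1, a feedback inhibitor of JAK kinases, rose by 1.11 at 1 h and fell by 0.73 at 24 h, and MCL1, a survival gene of the BCL2 family, rose by 0.84 at 1 h. Among receptors of the IL-6 family, IL27RA fell by 0.73 at 6 h and was at 14.2 ± 0.704 TPM at 24 h against 7.85 ± 0.615 TPM in DMSO (0.78, adjusted p = 8.11e-07). IL12RB1 rose by 0.29 at 24 h, which was lost with median-ratio scaling (0.14, adjusted p = 0.0716). Of 8 ligand genes 2 were tested, and CLCF1, not among them, was at 0.564 ± 0.0939 TPM at 1 h and 1.06 ± 0.124 TPM in DMSO.

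The relatives of the antigens moved in both directions. FCRLA, of the Fc receptor-like family, was at 5.78 ± 0.128 TPM at 24 h and 14.4 ± 0.973 TPM in DMSO (-1.18, adjusted p = 4.84e-10), and FCRLB fell by 0.78 at 6 h. These 2 were the tested relatives of FCRL5, and both fell at 3, 6 and 24 h. FCRL1 and FCRL2, untested for their low mean, were at 0.295 ± 0.121 and 0.173 ± 0.120 TPM at 24 h and at 1.96 ± 0.271 and 1.32 ± 0.190 TPM in DMSO. LY9, of the SLAM family, was at 0.770 ± 0.0777 TPM at 6 h and 2.24 ± 0.317 TPM in DMSO (-0.87, adjusted p = 1.02e-07). Of 4 tested SLAM adaptors and phosphatases 0, 0, 1 and 3 rose and 1, 1, 1 and 1 fell, and the phosphatase gene PTPN6 fell by 1.43 at 6 h. INPP5D, a lipid phosphatase gene, rose by 0.60 at 24 h and PTPN11 by 0.38 at 6 h. GPRC5B fell by 0.41 at 6 h and was 0.39 higher at 24 h (adjusted p = 0.00201), a call that length correction ended (0.093, adjusted p = 0.298). GPRC5D fell at both times.

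The syndecan SDC3 was at 1.30 ± 0.230 TPM at 24 h and 1.08 ± 0.180 TPM in DMSO and was called against DMSO at no time. Between times it fell by 0.31 from 1 h to 3 h (adjusted p = 0.0226) and rose by 0.34 from 6 h to 24 h (adjusted p = 0.00915). SDC2, untested, was at 0.165 ± 0.0879 TPM at 24 h and 1.18 ± 0.234 TPM in DMSO. Of 17 tested genes of heparan sulfate synthesis and syndecan shedding 2, 6, 8 and 13 rose and 1, 4, 3 and 2 fell at 1, 3, 6 and 24 h, with a median of 0.17 at 6 h and 0.25 at 24 h, beside 56.1% of all tested genes higher at 24 h. EXT2, a polymerase of heparan sulfate, rose by 1.08 at 24 h and SDCBP, which encodes the syndecan-binding protein syntenin, by 0.98. SULF2, a sulfatase that trims heparan sulfate, was at 4.44 ± 0.231 TPM at 24 h and 11.5 ± 1.49 TPM in DMSO (-1.20, adjusted p = 1.18e-08). Beside CD38, 8 genes for its relatives and for enzymes of adenosine and NAD were listed, of which 2 were tested. ADA, adenosine deaminase, fell by 0.98 at 6 h, and NAMPT, of NAD salvage, fell by 0.52 at 24 h. Of these 2, 1, 0, 0 and 0 rose and 0, 1, 2 and 2 fell.

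Among 13 tested genes of adhesion to the niche 1, 1, 1 and 6 rose and 1, 8, 9 and 6 fell at 1, 3, 6 and 24 h, with a median of -0.31 at 6 h and 0.061 at 24 h. Of all tested genes 24.5% fell at 6 h and 15.2% at 24 h. ITGB7, an integrin subunit of myeloma cells, was at 1156 ± 22.6 TPM at 24 h and 2538 ± 120.0 TPM in DMSO (-1.13, adjusted p = 6.43e-11). SELPLG, a selectin ligand, fell by 0.99 at 6 h and missed the test at 24 h (0.061, adjusted p = 0.304), and ICAM2 fell by 0.76 at 6 h. Of 21 other tested surface antigen genes 7, 5, 6 and 9 rose and 0, 7, 6 and 6 fell, with a median of -0.044 at 6 h and 0.068 at 24 h, beside 24.5% and 15.2% of all tested genes lower at 6 h and 24 h. TNFRSF10B, a death receptor gene, was at 23.2 ± 0.113 TPM at 1 h and 5.69 ± 0.676 TPM in DMSO (1.86, adjusted p = 3.98e-11). SLC3A2, the heavy chain of amino acid transporters, rose by 0.41 at 3 h and fell by 0.31 at 24 h, both lost with spike-in scaling, and CD86, a costimulatory ligand, fell by 1.25 at 6 h.

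By Pearson correlation of log2(TPM + 1) over the 15 libraries, which share the 5 groups, the protein-coding genes most like each surface gene were sought among 8721 with at least 5 TPM. They were UAP1 and INSIG1 for TNFRSF17 (r = 0.983 and 0.981), CR2 and SCD for CD38 (0.988 and 0.987), and GPD1 and CACNA1D for GPRC5D (0.971 and 0.969). SYNDIG1 and RAB3IL1 ran with SDC1 (0.996 and 0.996), HRH2 and CA8 with SLAMF7 (0.964 and 0.963), and MTURN and POU2AF1 with IL6R (0.996 and 0.994). POU2AF1, a B cell coactivator gene, was at 38.6 TPM at 6 h and 110.4 TPM in DMSO. KLF10 and RAB9A were nearest to CXCR4 (0.965 and 0.949), ASPM and SLC38A2 to IL6ST (0.986 and 0.983), and GPS2 and PRPF31 to TNFRSF13B (0.951 and 0.922).

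The libraries had 11616 to 12356 genes at 1 TPM or more, and replicates correlated with r between 0.995 and 0.998. Spike-in rows took 9.35% to 16.6% of the TPM of a library. All 8 plasma cell markers averaged at least 1 TPM, and their summed level was 5120.4 to 5292 TPM at 24 h and 7664 to 8486 TPM in DMSO. No T, NK or stromal cell marker of 10 averaged 1 TPM, and CD14 was the only myeloid one of 5. The plasma cell sum includes SDC1 and TNFRSF17 themselves, and is mostly JCHAIN and MZB1 (means of 4288 and 2618 TPM in DMSO). Of the 6 B cell markers, MS4A1, BLK and BACH2 averaged 1 TPM or more, and the 6 summed to 101 to 105 TPM at 24 h and 71.5 to 79.0 TPM in DMSO, mostly BLK. The 4 epithelial markers summed to 214 to 222 TPM at 24 h and 264 to 267 TPM in DMSO, with EPCAM, KRT8 and KRT18 above 1 TPM. The part of these shifts in the results was not tested.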

How the data were processed

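TPM values were deposited by the authors in 1 table of 26364 gene rows and 92 spike-in rows, in which each of 15 columns sums to 1000000. Without versions, STAR, featureCounts, FastQC, MultiQC and the build hg19 are named per the submitters' processing notes. The DMSO columns are headed as untreated at 0 h, and were matched to the DMSO samples by time and replicate number. Columns left unused numbered 0. The 12002 genes averaging 1 TPM or more over all libraries, spike-ins left out, were put on the log2(TPM + 1) scale. They were tested in R 4.3.3 using limma 3.58.1 (lmFit and eBayes with a variance trend, 5 groups in 1 fit, two-sided, Benjamini-Hochberg within each contrast over all genes tested, threshold 0.05). The test was checked on simulated data with normal noise, in which few genes changed at 24 h, equally often up and down. That check does not cover a shift of most genes. Tables and figures were made with Python 3.11.15, pandas 2.3.3 and matplotlib 3.10.9.

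TPM keeps no depth. In 4201 low genes with 1 GENCODE transcript, the commonest lowest value gave the worth of 1 read, which for 1000 bases lay between 0.0311 and 0.0458 TPM over the libraries. Read numbers are printed only for genes whose levels came out whole with the longest GENCODE transcript, and cover counting error only.

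The members and lists were chosen with earlier results of these data known. All 10 genes are named with every library. Of each list, the 3 genes with the smallest adjusted p of the moderated F test are named, and relatives or ligands reaching 1 TPM in a library. A listed gene that falls under this rule is not reported here. List symbols CXCR7, GRK2 and GRK3 have their rows under other symbols. Promoters come from RefSeq. Alternatives were another pseudocount, filter, scaling or variance model, a replicate block, only the compared groups, each library left out and, added after seeing the data, a correction for transcript length.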

Additional observations from a re-analysis of the deposited data

How the results depend on the processing

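For the 9 tested genes, 772 of 994 values under an alternative belonged to results called in TPM. Of these 714 were called in the same direction, 56 lost the call with the same sign and 2 lost it with the other sign, both with spike-in scaling: TNFRSF17 at 3 h (-0.068) and CD38 from 3 h to 6 h (0.24). Of the other 222, not called in TPM, 9 gained a call, 185 stayed uncalled with the same sign and 28 with the other sign. The number of members higher at 3 h, 1 in TPM, was 0 with no filter, median-ratio scaling, spike-in scaling, no variance trend or only the compared groups, and 0 to 1 with a library left out. At 1 h 1 was higher, against 0, with a filter of 5 TPM, without the spike-in rows or with length correction, and 0 to 1 with a library left out. Median-ratio scaling left 1 of 2 higher at 6 h. Spike-in scaling left 0 of 1 lower at 1 h, 0 of 1 higher at 24 h, 1 of 6 lower from 3 h to 6 h and 1 of 3 higher from 6 h to 24 h. Length correction gave 2 lower at 1 h and 0 higher at 24 h. Causes were not tested. Over all genes, 908 fell at 1 h, against 1791 with median-ratio scaling, 1736 with length correction, 536 with only the compared groups and 123 with spike-in scaling, and 1802 rose, against 1187 with only the compared groups and 348 with spike-in scaling. Without DMSO replicate 1 there were 531 lower and without KB528 1 h replicate 3 there were 560; without DMSO replicate 2, DMSO replicate 3 or KB528 1 h replicate 2 there were 1042, 2898 and 1176 higher. At 3 h spike-in scaling gave 411 higher and 2523 lower, against 2991 and 3836, and at 6 h 995 lower, against 2945. At 24 h there were 6738 higher and 1826 lower, against 4157 and 3966 with length correction and 2439 and 657 with spike-in scaling. From 1 h to 3 h 1829 rose, against 2939 with median-ratio scaling, 3348 with length correction and 81 with spike-in scaling, which gave 2070 lower, against 3816. From 3 h to 6 h 5074 rose and 1648 fell, against 3103 and 3600 with median-ratio scaling, 3099 and 3685 with length correction and, with spike-in scaling, 232 lower. From 6 h to 24 h 4925 rose and 3122 fell, against 1640 and 2037 with spike-in scaling. Whether shared replicate numbers pair the libraries cannot be told from these values. Deviations of same-numbered libraries correlated between -0.16 and 0.43 (median 0.0055, over 0.1 in 7 of 30 pairs). Those of other-numbered libraries correlated between -0.47 and 0.22 (median -0.013, over 0.1 in 8 of 60 pairs). Of the 15 libraries, 8 correlated best with their own number. With the replicate block 1 call was lost, TNFRSF13B from 3 h to 6 h (0.24, adjusted p = 0.0584). Low genes are limited by depth, FCRL5 above all. The same holds for GPRC5D at 24 h, with 25, 12 and 22 reads, and for SLAMF7.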
